A study of Bos taurus with 3 samples.

Results

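The mature miRNAs of cattle whose names carry a number from miR-2286 to miR-2489 were examined in the small RNA of large dense-core vesicles from bovine chromaffin cells. They were chosen by name alone, with any letter or arm and whether or not they had a count, and they came to 241 of the 793 mature miRNAs in the annotation used for counting. They were encoded on 210 hairpins. The study sequenced 3 libraries of RNA from vesicles purified from chromaffin cells, which release catecholamines from the adrenal medulla, of slaughtered cows. GEO labels 2 of them as technical replicates and 1 as a biological replicate, called the technical libraries 1 and 2 and the biological library below, and gives no treatment. Whole cells and other fractions were not analysed here, so the values describe the RNA of these preparations and not an enrichment over the cell. Nothing in the labels tells whether a preparation pooled several cows, or which step was repeated for the technical libraries, so these were averaged and means ± SD were taken over n = 2 preparations.

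A miRNA is cut from a hairpin precursor by Drosha in the nucleus and Dicer in the cytoplasm. Usually one of the strands, the 5p or the 3p arm, is kept by an Argonaute protein and guides it to target mRNAs through its seed. Numbers in miRNA names follow the order of registration, so a band of numbers is a group by date and not a family by sequence. Numbers in this range were largely registered from sequencing of bovine small RNA, and most of these miRNAs have no well-known target or function. Those from protein-coding introns are as a rule transcribed together with their host gene.

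The libraries held 5546771 counts in technical library 1, 6251664 in technical library 2 and 6708654 in the biological library, after each mature miRNA was counted once. On the CPM scale, which sets counts relative to these totals, 10 counts equalled 1.80, 1.60 and 1.49 CPM. A count of 0 allows up to 3 counts, or 0.541, 0.480 and 0.447 CPM. Intervals and limits cover counting error only. The endocrine miRNAs miR-375 and miR-7, taken as markers of chromaffin cells, held from 42.8% to 47.3% of the counts. Markers of smooth muscle and fibroblasts, all 6 of them with at least 10 counts in every library, held 1.68% and 1.89% in technical libraries 1 and 2 and 1.02% in the biological library. Both endothelial arms of miR-126 also had at least 10 counts in every library and together held 0.182%, 0.189% and 0.113%.

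Few of the 241 miRNAs were found. At least 10 counts in every library were reached by 17 of them (7.05%), against 278 of 396 (70.2%) of the miRNAs numbered below miR-2284 with let-7, which include most of the widely conserved ones. The ruminant families miR-2284 and miR-2285 stood between, with 27 of 63 (42.9%), and so did the miRNAs numbered above miR-2489, with 21 of 93 (22.6%). Another 10 of the 241 reached 10 counts in some libraries but not in every one, 69 had counts that stayed under 10 throughout, and 145 (60.2%) had no count in any library. Among all 793 miRNAs, 33.7% had no count. At these depths a miRNA without a count lies below the limits given above, which does not show that it is absent.

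**Figure D1:**
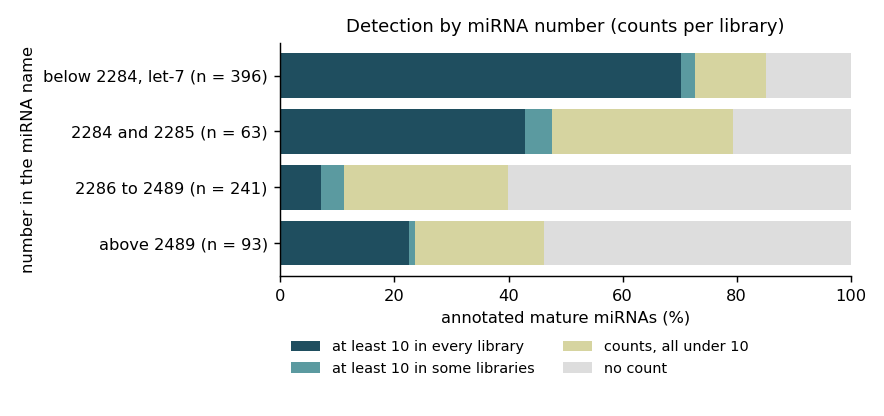
Share of annotated mature miRNAs (x axis, in percent) in 4 classes of detection, for 4 bands of miRNA numbers (y axis, n in brackets). The band from miR-2286 to miR-2489 has the smallest dark segment, 7.05%, and 60.2% without a count.

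Detection was sparse in each library alone. A count above 0 was seen for 77 of the 241 miRNAs in technical library 1, for 72 in technical library 2 and for 72 in the biological library. The biological library was the deepest of the 3. Of the 69 miRNAs with counts that stayed under 10, 37 were seen in both preparations, 23 in the technical libraries only and 9 in the biological library only. The technical side pools 2 libraries against 1. In the same order, the 49 such miRNAs below miR-2284 with let-7 gave 34, 14 and 1. The 20 of miR-2284 and miR-2285 gave 16, 4 and 0, and the 21 above miR-2489 gave 14, 5 and 2. Summed over the 69, these low counts came to 129, 130 and 123. Identical counts at both hairpin copies were found for miR-2404, with 1 and 2 counts in technical libraries 1 and 2 and 0 in the biological library. The other miRNAs with several rows were at 0 (miR-2363 and both arms of miR-2329) or had 1 count in all (miR-2319b, in the biological library).

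Together the 241 miRNAs made up 0.0497% ± 0.00536 (SD, n = 2) of all miRNA counts. They took 2541 counts in technical library 1, or 0.0458% (exact Clopper-Pearson 95% interval 0.0440 to 0.0476%). In technical library 2 they took 2877 counts, or 0.0460% (0.0444 to 0.0477%), and in the biological library 3589 counts, or 0.0535% (0.0518 to 0.0553%). The interval of the biological library lay above those of the technical libraries, which overlapped. This rise lay mainly in miR-2483-3p. It alone took 793 and 877 counts in technical libraries 1 and 2 and 1433 in the biological library. The miR-2284 and miR-2285 families held 0.0678% ± 0.00498 with 63 miRNAs, and the 93 miRNAs numbered above miR-2489 held 0.110% ± 0.00173 (both SD, n = 2).

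Very few miRNAs carried these counts. miR-2483-3p, miR-2478 and miR-2387 held 70.3% and 70.0% of the counts of the 241 in technical libraries 1 and 2 and 76.9% in the biological library, and the 10 most abundant held 87.9%, 87.4% and 90.7%. Only 2 of the 17 miRNAs found in every library had a mean of 100 CPM or more. The median of the 17 was 5.59 CPM, against 104 CPM for the 326 other miRNAs found in every library.

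miR-2483-3p (MIMAT0012076) was the most abundant, with rank 136 of 793. Its level was 143 CPM in technical library 1 (exact 95% Poisson interval 133 to 153), 140 CPM in technical library 2 (131 to 150) and 214 CPM in the biological library (203 to 225). The technical libraries were thus alike within counting error and the biological library lay above both. Its hairpin lies within the span of TENM1, which encodes a teneurin, a transmembrane protein of neuronal wiring. The opposite arm, miR-2483-5p (MIMAT0012075), had 35.2 and 33.4 CPM in technical libraries 1 and 2 and 21.9 CPM in the biological library. It went the other way from the 3p arm, with the biological library below both technical libraries.

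miR-2478 (MIMAT0012070) had 101 and 94.1 CPM in technical libraries 1 and 2 and 117 CPM in the biological library, and ranked 161. Its hairpin overlaps no other gene of the RefSeq annotation and lies between NKAIN2 and TRDN. miR-2387 (MIMAT0011939) had 77.7, 87.7 and 81.1 CPM, so that the biological library lay between the technical ones. The hairpin of miR-2387 is within GTF2IRD1, a gene for a transcription factor of the Williams syndrome region. miR-2366 (MIMAT0011904) had 13.7 and 13.1 CPM in technical libraries 1 and 2 and 21.5 CPM in the biological library, again above both. The host span here is MAP1A, which encodes a microtubule-associated protein of neurons.

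The next 10 by mean level lay between 2.54 and 7.52 CPM, or from 8 to 51 counts in a library. miR-2411-5p had 39, 51 and 50 counts in technical libraries 1 and 2 and the biological library, and its opposite arm miR-2411-3p had 19, 20 and 17. Both come from a hairpin within UBAP2L, a gene of stress granule assembly. miR-2308 had 42, 51 and 47 counts, and miR-2336, between VPS53 and RFLNB, had 29, 28 and 29. miR-2431-3p and miR-2431-5p, within an unnamed lncRNA, had 35, 46 and 41 counts and 14, 24 and 13 counts. miR-2419-5p, between NOD1 and ZNRF2, had 31, 34 and 38 counts. miR-2350, within BIN1, which encodes a membrane-curving protein of endocytosis, had 13, 15 and 23 counts, and miR-2320-5p had 15, 24 and 15. miR-2484, the last of these, had 21, 25 and 8 counts. For 9 of these 10 miRNAs the Poisson intervals of all 3 libraries overlapped, and for miR-2484 the interval of the biological library (0.515 to 2.35 CPM) lay below that of technical library 2 (2.59 to 5.90 CPM).

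**Figure D2:**
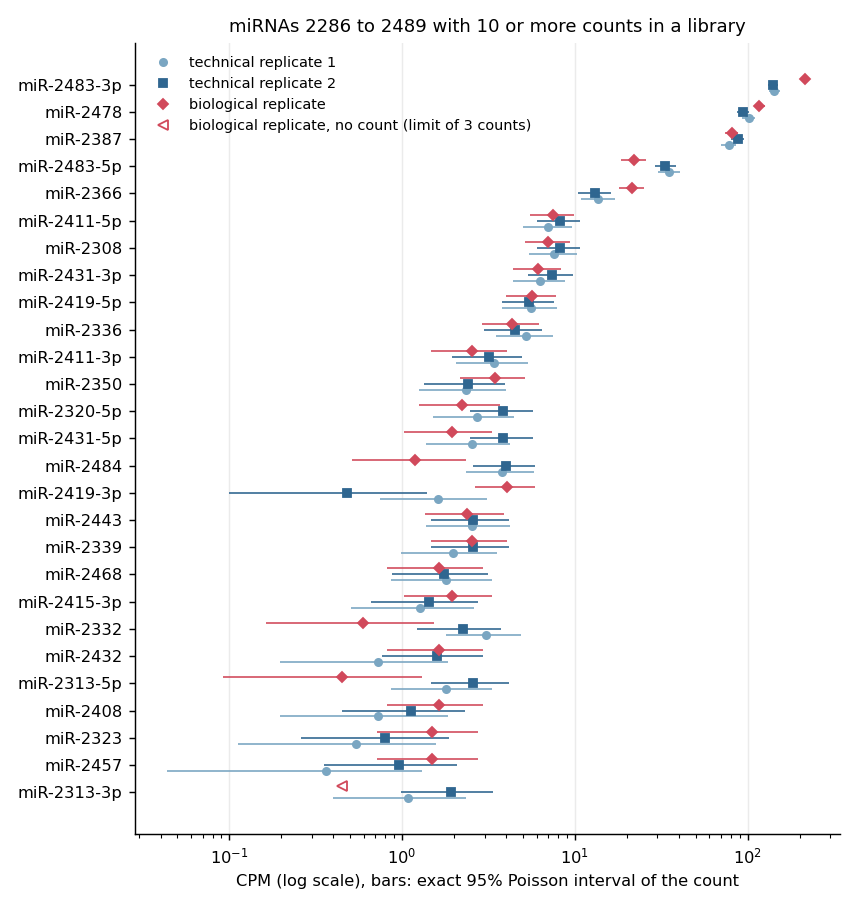
Level in CPM (x axis, log scale) of the 27 miRNAs numbered miR-2286 to miR-2489 with at least 10 counts in a library (y axis), for the 3 libraries, with exact 95% Poisson intervals as bars and an open triangle at the limit of 3 counts where no count was found. Only miR-2483-3p and miR-2478 reach 100 CPM on average, and the biological library is highest for miR-2483-3p at 214 CPM.

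The remaining miRNAs with at least 10 counts in every library were near the limit of detection. miR-2443 had 14, 16 and 16 counts, and its hairpin lies between those of let-7a-3 and let-7b, within the span of an unnamed protein-coding gene. miR-2339, within ELAC2, which encodes an enzyme of tRNA 3′ end processing, had 11, 16 and 17 counts. miR-2468, within SCRG1, had 10, 11 and 11.

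The biological library was compared with the technical libraries to see which levels repeated between preparations. The test was edgeR's quasi-likelihood test with Benjamini-Hochberg adjustment, over the 367 miRNAs that had 10 counts or more somewhere in the 3 libraries. Of these, 37.9% passed at an adjusted p below 0.05, with 17.7% higher and 20.2% lower in the biological library. The directions depended on the scaling: 65 were higher and 74 lower with TMM, 24 and 86 with library totals. Of the 27 miRNAs numbered miR-2286 to miR-2489 that were tested, 9 passed, 4 higher and 5 lower (33.3%), and 8 with library totals, 3 higher and 5 lower. This count mixes miRNAs found in every library with others that entered the test through 1 preparation, and these are given apart below. The median log2 fold change of the 27 was 0.15, also with miR-2313-3p at its bound, and that of all 367 was 0.01. Only the technical libraries give this fit a spread, so its p-values set these libraries against each other and say nothing of animals.

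Among the 17 that reached 10 counts in every library, 4 passed (23.5%), against 38.5% of all 343 such miRNAs. The median of the 17 was 5.59 CPM, against 104 CPM for the 326 others, so these shares are not compared at equal level. miR-2483-3p rose by a log2 fold change of 0.77 ± 0.11 (SE; edgeR, adjusted p = 5.99e-10). It passed in all 7 alternative fits, with adjusted p-values from 1.34e-09 to 0.0116. miR-2366 rose by 0.86 ± 0.21 (SE; edgeR, adjusted p = 2.04e-04) and passed in 5 of 6 alternatives, with adjusted p-values from 7.71e-06 to 0.166. miR-2478 rose by 0.44 ± 0.13 (SE; edgeR, adjusted p = 0.0021), but did not pass with library totals, with only miRNAs of at least 100 CPM or with DESeq2, and its adjusted p ranged from 0.00275 to 0.139. miR-2483-5p fell by 0.46 ± 0.18 (SE; edgeR, adjusted p = 0.0277). It passed in 2 of 6 alternatives, with adjusted p-values from 0.00599 to 0.392. The other 13 did not pass, among them miR-2387 with a log2 fold change of 0.15 and miR-2411-5p with 0.15.

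The other 10 tested miRNAs reached 10 counts in some libraries only, so that they entered the test through the preparation in which they were high. Of these 5 passed, against 29.2% of all 24 such miRNAs. The filter selected them on the same values. This count, their adjusted p-values and the fold intervals below, which leave out this selection, are therefore not taken as support for a difference. miR-2313-3p had 6 and 12 counts in technical libraries 1 and 2 and none in the biological library, at least 3.36-fold lower when the mean of the technical libraries is set against the limit of 3 counts. With the counting error of the technical libraries included, the exact 95% interval begins at 2.50-fold. These folds and that of the other arm below are on library totals, not on the TMM scale of the fit. The other arm of this hairpin, miR-2313-5p, had 10, 16 and 3 counts, a 4.93-fold lower level in the biological library (exact 95% interval 1.51 to 25.4 from counting error). Both arms passed (edgeR, adjusted p = 6.43e-04 for the 3p and 0.0115 for the 5p arm). Their hairpin lies in GRAMD1B, which encodes a cholesterol transporter of the endoplasmic reticulum. miR-2332, within UTP6, a gene of ribosomal RNA processing, had 17, 14 and 4 counts and a log2 fold change of -1.92 ± 0.52 (SE; edgeR, adjusted p = 0.00854). miR-2484 had a log2 fold change of -1.51 ± 0.43 (SE; edgeR, adjusted p = 0.00694).

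miR-2419-3p was the 1 rise among these, with 9 and 3 counts in technical libraries 1 and 2 and 27 in the biological library. Its log2 fold change was 2.14 ± 0.39 (SE; edgeR, adjusted p = 3.13e-05). The technical libraries themselves lay apart, and the log2 ratio was 3.22 without technical library 1 and 1.44 without technical library 2. Another 5 did not pass, and all had at least 10 counts in the biological library, through which most of them entered the test. miR-2415-3p had 7, 9 and 13 counts, miR-2408 (within PC, the pyruvate carboxylase gene) 4, 7 and 11, and miR-2432 (within IL23A, a cytokine gene) 4, 10 and 11. miR-2323 had 3, 5 and 10 counts, and miR-2457 had 2, 6 and 10.

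With DESeq2 in place of edgeR, miR-2483-3p was the only 1 of the 27 to pass, against 22.6% of all 367 miRNAs, and the other 8 had adjusted p-values from 0.108 to 0.397. The share of smooth muscle, fibroblast and endothelial markers was also lower in the biological library, as given above, and so were those of leukocyte markers and miR-122. Other marker shares were higher there than in technical libraries 1 and 2. They were 47.3% against 44.1% and 42.8% for miR-375 with miR-7, and 0.110% against 0.0898% and 0.0837% for erythrocyte markers. Skeletal muscle markers held 0.0151% against 0.0128% and 0.0132%. The part of these shares in the differences between preparations was not tested.

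**Figure D3:**
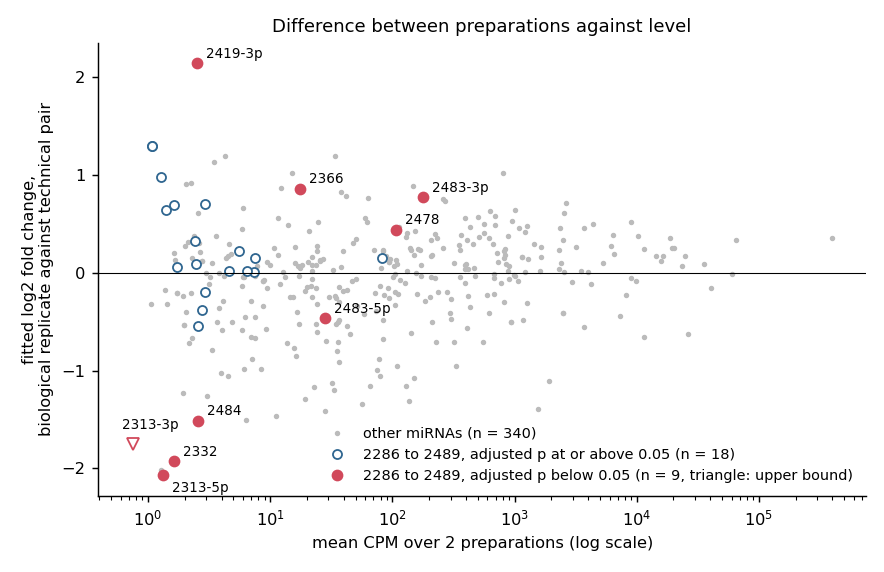
Log2 fold change of the biological library against the technical pair from edgeR (y axis) by mean CPM over 2 preparations (x axis, log scale), for the 340 other miRNAs (grey) and the 27 numbered miR-2286 to miR-2489 (filled where the adjusted p is below 0.05). The filled points lie on both sides of 0, and the triangle for miR-2313-3p marks the bound of 3.36-fold set by the limit of 3 counts. This bound is on library totals, while the other points are on the TMM scale.

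The technical libraries differed by no more than counting noise in these miRNAs. Over the 17 found in every library, the chi-square statistic per miRNA was 0.601 between the technical libraries. It was 7.28 and 9.05 between technical libraries 1 and 2, in turn, and the biological one. Both arms of miR-2483, miR-2478 and miR-2366 were the 4 of the 17 that passed the edgeR test of this same contrast. Without them, the other 13 gave 0.627 for the technical pair and 0.342 and 0.910 against the biological library. Leaving out miRNAs that had passed lowers the statistic by construction, so these values do not show where the excess lay. For the 191 other miRNAs in the same range of mean CPM (1.71 to 178), the statistic was 1.85 for the technical pair and 21.4 and 23.0 against the biological library. Levels were not matched within this range, so the 2 groups cannot be compared at equal level. With a pseudocount of 1 CPM, which shrinks ratios at low levels, the median absolute log2 ratio of the 17 was 0.10 for the technical pair. It was 0.20 and 0.23 between preparations. Among those 191 others it was 0.14, 0.33 and 0.34.

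Both arms were annotated for 35 of the 210 hairpins. Counts were found on both arms in 12 of these, on the 3p arm alone in 8, on the 5p arm alone in 4 and on neither in 11. miRNAs named with an arm reached 10 counts in every library in 8 of 70 cases (11.4%), and those named without an arm in 9 of 171 (5.26%).

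Only 5 hairpins had at least 10 counts over both arms in every library, and the arm with more counts was the same in every library for each of them. The 3p arm led in miR-2483 and miR-2431, and the 5p arm in miR-2419, miR-2411 and miR-2320. In miR-2483 the 3p arm held 80.3% of both arms in technical library 1 (793 of 988 counts, exact Clopper-Pearson 95% interval 77.6 to 82.7%). It held 80.8% in technical library 2 (877 of 1086, 78.3 to 83.1%) and 90.7% in the biological library (1433 of 1580, 89.2 to 92.1%). The technical libraries gave the same share within counting error and the biological library lay 10.2 percentage points above them. Arms of one hairpin are counted in the same library, so this share does not depend on how the libraries are scaled.

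The 3p share of miR-2419 was 22.5% in technical library 1 (10.8 to 38.5%), 8.11% in technical library 2 (1.70 to 21.9%) and 41.5% in the biological library (29.4 to 54.4%). The interval of the biological library lay above that of technical library 2 and overlapped that of technical library 1. In miR-2431 the 3p arm held 71.4%, 65.7% and 75.9%, in miR-2411 it held 32.8%, 28.2% and 25.4%, and in miR-2320 6.25%, 7.69% and 21.1%. The intervals of all 3 libraries overlapped within each of these hairpins. miR-2320-3p had 1, 2 and 4 counts.

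The lesser arm held over 10% of both arms, on average, in all 5 hairpins, and in 15 of the 36 other hairpins of the series with both arms annotated and at least 10 counts. For miR-2320 this mean rested on 4 of 19 counts in the biological library, with 6.25% and 7.69% in technical libraries 1 and 2. The change of the 3p share between preparations was 10 points or more in 3 of the 5 and in 2 of the 36. Among all 41 hairpins it was widest for miR-2419 and ranked 2 for miR-2320 and 5 for miR-2483. The counts of miR-2419 and miR-2320 were low, from 16 to 65 over both arms, and the part of counting error in these ranks was not tested.

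**Figure D4:**
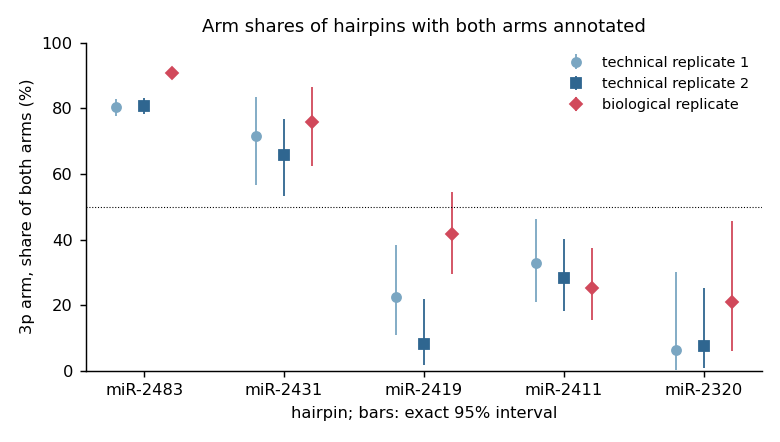
Share of the 3p arm among the counts of both arms (y axis, in percent) for the 5 hairpins with at least 10 counts over both arms in every library (x axis), with exact 95% intervals as bars and a dotted line at equal arms. The share of miR-2483 is 80.3% and 80.8% in the technical libraries and 90.7% in the biological library, with no overlap of intervals.

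The genes around the hairpins were taken from RefSeq on the assembly ARS-UCD2.0, which is not the build of the counts, so only overlaps and neighbours are given. The table gives no strand, and a hairpin within the span of a gene may lie on its other strand. Of the 210 hairpins, 208 were matched by name, and 163 of these (78.4%) lay within the span of a protein-coding gene. Another 10 lay within a lncRNA gene only, and 35 (16.8%) overlapped neither. For hairpins numbered below miR-2284 and let-7 the share within protein-coding genes was 55.7% (221 of 397), for miR-2284 and miR-2285 it was 68.0%, and above miR-2489 it was 74.2%.

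Of the 14 hairpins with at least 10 counts in every library, 10 (71.4%) were within protein-coding genes. Of the 194 matched hairpins under 10 counts in a library, 153 (78.9%) were. Among these, the 125 without a count had 92 (73.6%), so the rest, which had some counts, were within such genes more often than either end. The 163 hairpins fell in 151 host spans, of which 8 held more than 1. HTT, the huntingtin gene, held the most, with the hairpins of miR-2450a, miR-2450b, miR-2450c, miR-2450d and miR-2451. Counts within HTT differed between neighbours. miR-2450a had 7, 9 and 9 counts in technical libraries 1 and 2 and the biological library, and miR-2450c had 2, 4 and 9. miR-2450d and miR-2451 had 1 count each, in the biological library, and miR-2450b had none. SHB, a gene for a signalling adaptor, held 3 hairpins (miR-2472, miR-2473 and miR-2474), all without a count.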

How the data were processed

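The deposited count table holds raw counts by the authors, 1 row for each mature miRNA on a hairpin, 919 rows in all. Its CPM columns equal count over column total, to within the authors' rounding, and were not used further. The authors' deposited log2 CPM table covers 24 of the 241 miRNAs and served as an alternative. The submitters' processing notes name the build UMD3.1 and edgeR, with no role. Which aligner, counter and miRBase release were used is not given in the sources used here.

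Where a mature miRNA had several rows, the row with the highest sum of counts stood for it. Library totals (5546771 to 6708654 counts) set the precision given with each value. The test was edgeR 4.0.16 (R 4.3.3) with TMM scaling, after a check on simulated data, and adjusted p-values cover all 367 miRNAs tested. SEs were derived from the fold change and the F statistic. DESeq2 1.42.0, library totals, other filters, summed rows, miR-375 left out and each library left out were alternatives. Exact intervals came from scipy 1.17.1.

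The members, lists and rules were chosen with earlier results of these data known. miRNAs were named for a mean among the 15 highest, an adjusted p below 0.05, both arms annotated with at least 10 counts over them in every library, 10 counts in some libraries only, or several rows. A rule on shared seeds was not applied, since no sequences were used here. miR-2443, miR-2339, miR-2468 and those of HTT and SHB were named after their values were seen. No change of the design was needed for the units found. Of the other marker lists, erythrocyte markers held from 0.0837% to 0.110% of counts, leukocyte from 0.00507% to 0.00784%, skeletal muscle from 0.0128% to 0.0151% and the hepatocyte marker miR-122 at most 1.08e-04%.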

Additional observations from a re-analysis of the deposited data

How the results depend on the processing

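The number of miRNAs numbered miR-2286 to miR-2489 with enough counts in every library was 17, and became 10 at a minimum of 20 counts and from 17 to 20 with a library left out. Their share of all counts, 0.0497%, became 0.0378% when rows of a miRNA were summed and 0.0823% without miR-375 in the total, and lay between 0.0459% and 0.0498% with a library left out. Of the 27 tested, 9 passed in edgeR, 1 in DESeq2 (3 at an unadjusted p below 0.05) and 1 of 2 in a fit limited to means of 100 CPM or more. In 4 other alternatives 8 of the 27 passed, and without a count filter 10 of 96 did, 9 of them among the 9 of the reported fit. With library totals the median of all 367 log2 fold changes moved from 0.01 to -0.17, and 7 small changes that had not passed turned sign: miR-2308 (-0.17), miR-2336 (-0.16), miR-2387 (-0.030), miR-2411-5p (-0.033), miR-2431-3p (-0.17), miR-2443 (-0.092) and miR-2468 (-0.12). Without a count filter miR-2308 was at -0.016, miR-2336 at -0.0071 and miR-2431-3p at -0.013, and without miR-375 miR-2308 was at -0.0064 and miR-2431-3p at -0.0038. The cause of the DESeq2 difference was not tested. The median absolute log2 ratio for the technical pair was 0.12 in the authors' log2 table. Between technical replicate 1 and the biological replicate it was 0.15 at a mean of 20 counts or more, 0.26 once the pseudocount was 0.1 CPM, and the authors' table gave 0.24, and for technical replicate 2 it was 0.26 with that pseudocount. Without the biological library the 3p share of miR-2419 went from 28.4% to 15.3% and that of miR-2320 from 14.0% to 6.97%. With any library left out the shares lay from 80.5% to 85.7% for miR-2483, 68.6% to 73.7% for miR-2431, 15.3% to 32.0% for miR-2419, 26.8% to 30.5% for miR-2411 and 6.97% to 14.4% for miR-2320. No test with a library left out was possible, since no residual degrees of freedom remain. No paired analysis was possible because the labels match neither technical library with the biological library. Depth limits most of these miRNAs: under 20 counts, only changes of several fold can be told from counting error.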
